A study of Homo sapiens with 17 samples.

Results

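Of the 17 arrays of the series, 6 measured RNA of NKYS cells that had been electroporated with a plasmid for full-length EZH2, and each was set against the vector array of its own set. Set 1 and set 2, numbered in the titles, each held 3 such plasmid arrays, titled Y244D, Y244A and WT, and 1 array of cells that received the vector alone. The WT array counted in set 2 carries no number in its title, and it was placed there by the rule that defines this comparison, not by a label. A plasmid for EZH2 without its SET domain was measured on 1 further array that has no set number, and it entered no comparison. The other 8 arrays had siRNAs and are used below for levels only.

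NKYS, an established cell line, derives from a human lymphoma of NK/T-cell type, and all cells were grown with serum and recombinant interleukin-2. In Y244D and Y244A, 1 tyrosine of EZH2 is replaced by aspartate or alanine. On the 3 plasmid arrays of set 2 the transfection field names another construct than the title does, so that the constructs were pooled, and a title is used below only to tell arrays apart. The plasmids were introduced by electroporation into cells that keep their own EZH2 gene, and the labels name neither the promoter of the plasmid, nor the time of harvest, nor whether arrays came from separate cultures. With only 1 vector array per set, the 3 differences of a set share any deviation of that array, and p-values measure only how these arrays varied, which may be technical variation.

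EZH2 is the catalytic subunit of Polycomb repressive complex 2 (PRC2), which methylates lysine 27 of histone H3 at genes that are kept silent. Polycomb repressive complex 1 (PRC1) ubiquitinates histone H2A, and its variants are told apart by the PCGF protein they hold. PCGF6 defines the variant that also contains the E2F6, MAX and L3MBTL2 proteins. In lymphomas of natural killer and T cells EZH2 is known for high expression.

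Before any test, the arrays themselves differed in range. The interquartile range of log2 intensity, a measure of how widely the signals of an array spread, was 1.79 on the set 1 vector and 1.85, 2.03 and 1.96 on the set 1 plasmid arrays titled Y244D, Y244A and WT. In set 2 it was 2.18 on the vector and 2.14, 1.99 and 2.14 on the plasmid arrays in the same order. Set 1 plasmid arrays were therefore wider than their vector and set 2 plasmid arrays narrower. Across 14410 genes, the signals of the set 1 array titled Y244A correlated more closely with the vector of set 2 (r = 0.964) than with the vector of its own set (r = 0.925), as a description over genes that are no independent replicates. The array titled Y244A was also the one of set 2 that stood farthest from its vector, with r = 0.972 against 0.996 and 0.995 for the arrays titled Y244D and WT. Of the 10 natural killer markers, 6 were above the array median on all 8 arrays, among them NKG7, PRF1, GZMB, TBX21, EOMES and CD7. GNLY and CD2 were below it on all 8 arrays. Markers of other cell types fell on both sides. Below the median on all 8 arrays were CD3D, CD3E, CD3G and CD5 of T cells, MS4A1 of B cells, LYZ and S100A8 of monocytes, EPCAM of epithelium and DCN of fibroblasts. Above it on all 8 were CD4 of the T cell list, CD79B and PAX5 of the B cell list, CSF1R and ITGAM of the monocyte list, and KRT18, COL1A1 and COL1A2 of the epithelial and fibroblast list. CD8A and KRT8 were above it on 6. Signals of different probe sets are not on 1 scale, so that a side of the median is not a call of expression.

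EZH2 was the gene with the largest difference. In set 1 its signal intensity was 259 with the vector and 2221, 853 and 1020.2 with the plasmids titled Y244D, Y244A and WT. In set 2 it was 349 with the vector and 803, 1177 and 881 with the plasmids in that order. Every plasmid array lay above both vector arrays, so that the groups did not overlap. Of all genes tested, 1.53% had all 6 plasmid arrays above the vector of their own set, which is a looser condition. The share of genes with all 6 above both vectors was not counted. The mean over the 3 plasmid arrays was 1365 ± 746 (SD, n = 3) in set 1 and 954 ± 197 (SD, n = 3) in set 2, and the array titled Y244D gave set 1 its wide spread. On the log2 scale the 6 differences from the vector ran from 1.20 to 3.10, with a mean of 1.85, or 3.60-fold. This was 3.31 times the SD of the plasmid arrays within a set, which was 0.56. The limma fit with the set as a block gave EZH2 a standard error of 0.33 and the smallest unadjusted p of all genes, 0.000171, with a Benjamini-Hochberg adjusted p of 1.0. An exact two-sided permutation of the vector label within each set gave p = 0.0625, the smallest value that its 16 arrangements allow.

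The vector arrays also stood low for EZH2 beside the rest of the series. The 4 control siRNA arrays had 691 to 926, the 2 arrays with JAK3 siRNA had 763 and 776, and the 2 with EZH2 siRNA had 489 and 501. Both vector arrays were thus below the arrays with EZH2 siRNA, although siRNA and vector cells were not electroporated with the same kind of nucleic acid and no test was made across them. Array range differed too, with an interquartile range of 2.27 to 2.33 on the siRNA arrays against 1.79 and 2.18 on the vectors. The array with the SET-deleted plasmid had an EZH2 signal of 1471. Transcript of the plasmid and of the cells' own EZH2 gene were not told apart here.

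**Figure D1:**
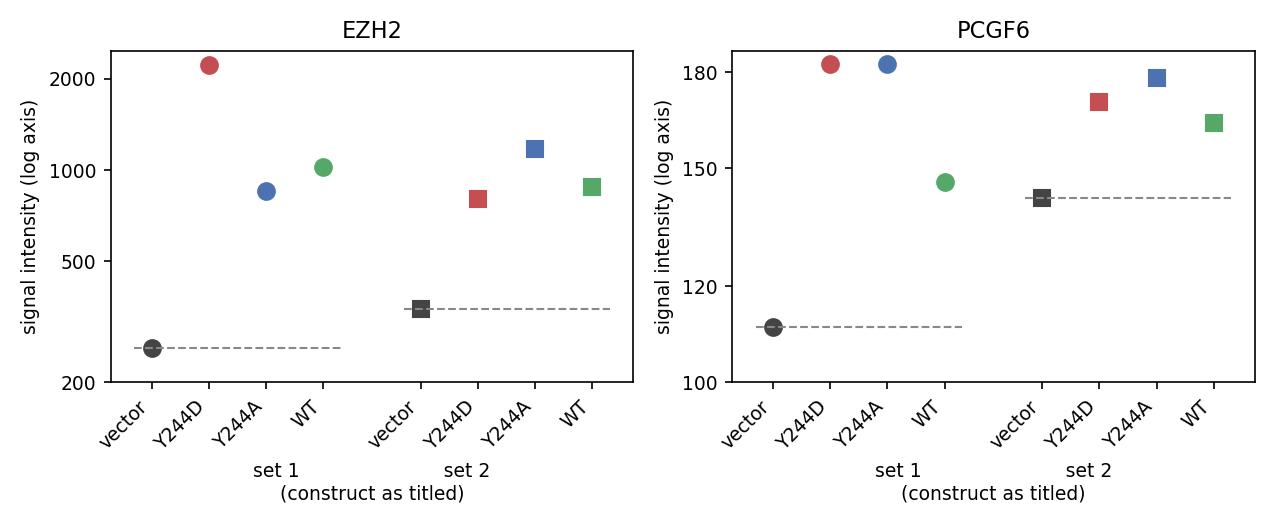
Signal intensity of EZH2 (left) and PCGF6 (right) on a log axis for the 8 arrays, circles for set 1 and squares for set 2, with a dashed line at the vector of each set. All 6 plasmid arrays lie above their vector, for EZH2 at 803 to 2221 against 259 and 349, and for PCGF6 at 146 to 183 against 111 and 142.

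PCGF6 came next when genes of one sign were ordered by the smallest of their 6 differences. Its signal was 111 with the vector of set 1 and 183, 183 and 146 with the plasmids titled Y244D, Y244A and WT. With the vector of set 2 it was 142, and with the plasmids 169.9, 178 and 163. The lowest plasmid array, at 146 in set 1, lay only a little above the set 2 vector at 142. PCGF6 was ranked among genes already higher in all 6 differences, which were 1.53% of the genes tested. How many of these also lay above both vectors was not counted. The differences ran from 0.21 to 0.72 on the log2 scale, with a mean of 0.44 (SE 0.14), or 1.35-fold, at 3.15 times the SD of 0.14 within a set. In the limma fit the unadjusted p was 0.00856 and the adjusted p 1.0. A second PCGF6 probe set, with a mean signal of 61.1 against 158 for the first, had a mean difference of 0.04 and was higher on 4 of 6 arrays. On the 8 siRNA arrays PCGF6 was between 143 and 197, which takes in all 6 plasmid arrays and lies above both vectors. The siRNA arrays were also wider in range than the vectors, and no test was made across them.

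No gene passed the test of plasmid against vector. At an adjusted p under 0.05 the limma fit called 0 of 14410 genes (0%), while 54 genes had an unadjusted p under 0.05, of which 22 were higher and 32 lower with a plasmid. The other fits also called 0, with 10 to 2209 genes at an unadjusted p under 0.05. In all 6 differences 220 genes were higher (1.53% of the genes tested) and 363 were lower (2.52%). These counts are descriptions, since the 3 differences of a set share a vector. Most sizes were small, with a median of 0.17 for the higher and -0.17 for the lower genes, and the difference nearest to 0 had a median size of 0.03 in both. Against the SD within a set, the mean difference was larger than 1 SD for 199 of the 220 and 339 of the 363. It was larger than 2 SD for 70 and 133. Choosing genes for one sign in these same differences itself favours a mean that is large beside the SD. The median ratio of mean to SD was 1.66 for the higher and 1.74 for the lower genes, and 0.51 over all genes tested. This SD leaves out any deviation of the vector arrays. EZH2 was the only one of these 583 genes whose mean difference reached 1 on the log2 scale. EZH2 and PCGF6 were the only 2 with all 6 differences at 0.2 or more in size. At 0.1 or more there were 23 higher and 34 lower genes.

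PCGF6 is shown with its promoter because it is the Polycomb gene, other than that on the plasmid, which stood highest, TMA7 because both its probe sets were higher in all 6 differences, and KCTD6 because it leads the lower genes. Each sequence is taken from RefSeq on GRCh38.p14 and runs from 250 bases before to 50 bases after the annotated start, 5′ to 3′ on the strand of the gene, with CpG dinucleotides in capitals. PCGF6 lies at chr10:103351091-103351390 on the minus strand, and TMA7 at chr3:48440007-48440306 and KCTD6 at chr3:58491846-58492145 on the plus strand.
PCGF6: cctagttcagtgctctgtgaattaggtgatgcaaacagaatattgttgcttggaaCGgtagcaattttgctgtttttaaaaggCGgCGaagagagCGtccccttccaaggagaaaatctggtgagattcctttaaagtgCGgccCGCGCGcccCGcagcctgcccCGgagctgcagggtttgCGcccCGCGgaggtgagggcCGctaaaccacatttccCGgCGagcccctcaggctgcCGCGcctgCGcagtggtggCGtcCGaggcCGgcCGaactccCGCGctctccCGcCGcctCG
TMA7: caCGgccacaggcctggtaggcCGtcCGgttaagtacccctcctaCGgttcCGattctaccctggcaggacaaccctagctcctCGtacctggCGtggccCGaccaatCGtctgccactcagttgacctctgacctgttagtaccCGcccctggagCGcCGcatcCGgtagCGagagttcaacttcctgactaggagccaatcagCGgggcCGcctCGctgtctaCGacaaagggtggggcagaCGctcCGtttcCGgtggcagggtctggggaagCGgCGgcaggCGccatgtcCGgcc
KCTD6: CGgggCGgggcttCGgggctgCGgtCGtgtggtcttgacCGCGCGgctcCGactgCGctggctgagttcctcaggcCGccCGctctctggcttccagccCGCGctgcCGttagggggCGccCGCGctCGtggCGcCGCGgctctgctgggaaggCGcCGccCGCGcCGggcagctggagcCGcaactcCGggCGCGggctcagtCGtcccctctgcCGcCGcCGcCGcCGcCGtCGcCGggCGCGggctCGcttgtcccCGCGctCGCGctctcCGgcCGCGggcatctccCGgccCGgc
The 300 bases hold 28 CpG dinucleotides in PCGF6, 25 in TMA7 and 52 in KCTD6. Over the first promoter of 27305 genes in the same table the median was 14, with quartiles at 3 and 28. These counts describe the sequences only, and no binding or methylation was measured here.

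Among the 12 higher genes named by the rule were 2 that act on protein synthesis or folding. TMA7, a protein associated with the translation machinery, had 227 with the set 1 vector and 327, 317 and 343 with the plasmids. In set 2 it had 288 with the vector and 316, 327 and 329. The mean difference was 0.35 (SE 0.12; unadjusted p = 0.0145 and adjusted p = 1.0 by limma), and the SD of the plasmid arrays within a set was 0.05. Its second probe set had a mean difference of 0.29 and was higher on 6 of 6 arrays. The set 1 differences, at 0.48 to 0.60, were all above those of set 2, at 0.13 to 0.19. DNAJB2, a co-chaperone of heat shock protein 70, was higher by 0.20 (SE 0.11), with differences of 0.12 to 0.35.

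Chromatin genes gave 2 more. HMGN2, which binds nucleosomes, had 781 with the set 1 vector and 900.1, 986 and 864 with the plasmids, and 837 against 1078, 955 and 930.5 in set 2. Its mean difference was 0.23 (SE 0.12), while 2 further probe sets were higher on 5 of 6 arrays, by 0.14 and 0.14. H2AC14, a replication-dependent histone H2A gene, had a mean difference of 0.48 (SE 0.23), and the arrays titled WT gave the 2 largest values, 1.07 and 0.79, against 0.15 to 0.55 on the other 4. Both genes have close copies elsewhere in the genome, so that their probe sets can take up signal from those. H2AC14 had the same signal, 226.96, on the set 1 vector and on the set 2 arrays titled Y244D and Y244A.

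Small non-coding RNAs supplied 3 of the higher genes. RNU5D-1, a U5 small nuclear RNA of the spliceosome, was at 61.8 with the set 1 vector and 81.9, 119.7 and 268 with the plasmids, but at 1885 with the set 2 vector and 2215, 2140 and 2256 with the plasmids. The gap between the sets was far wider than any difference from a vector, which averaged 0.69 (SE 0.36). RNU5E-1, another U5 gene, had the same layout, with 644 to 1532 in set 1 and 2626 to 3351 in set 2, and a mean difference of 0.43 (SE 0.24). The set 1 array titled WT had a difference of 1.25 and the other 5 arrays 0.11 to 0.35, and without that array the mean was 0.27 for RNU5E-1 and 0.44 for RNU5D-1. U5 copies are nearly identical in sequence, and these 2 are not independent readings. SNORA36C, a small nucleolar RNA of the kind that guides pseudouridylation, was higher by 0.27 (SE 0.13) at signals of 41.2 to 67.9.

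The remaining higher genes were DLG4, SIGLEC14 and FAM168B. DLG4, a scaffold protein of synapses, was at 43.1 with the set 1 vector and 56.4, 66.1 and 64.8 with the plasmids, and at 40.8 against 44.7, 53.7 and 48.5 in set 2. Its mean difference of 0.39 (SE 0.13) had an unadjusted p of 0.0114 and an adjusted p of 1.0 by limma, but it stayed below the array median on 8 of 8 arrays. SIGLEC14, a sialic acid receptor of myeloid cells, was below the median on 7 of 8 and higher by 0.30 (SE 0.15). FAM168B was higher by 0.30 (SE 0.16), of which the set 1 array titled Y244A gave 0.83 and the other 5 arrays 0.12 to 0.31.

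KCTD6, an adaptor for cullin-3 ubiquitin ligases, stood first among the lower genes. Its signal was 99.0 with the set 1 vector and 81.0, 81.0 and 78.0 with the plasmids. It was 136 with the set 2 vector and 109.9, 89.1 and 121 with the plasmids. The differences were -0.17 to -0.61, with a mean of -0.33 (SE 0.13) and, by limma, an unadjusted p of 0.0281 and an adjusted p of 1.0. The 3 set 1 arrays lay close together, while the set 2 array titled Y244A stood lowest.

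LINC02591, a long non-coding RNA, had the lowest mean difference among the genes of one sign, at -0.56 (SE 0.17; unadjusted p = 0.00753 and adjusted p = 1.0 by limma). It was at 118 with the set 1 vector and 76.2, 65.9 and 54.2 with the plasmids, and at 70.4 against 59.99, 55.2 and 62.6 in set 2. Its 2 other probe sets gave -0.33 and -0.33, each with 1 array higher than its vector. SNORA70E was lower by 0.38 (SE 0.13) and OR14I1, an olfactory receptor gene, by 0.47 (SE 0.17), both at signals below the array median on 7 of 8 arrays. Set 1 carried more of these differences than set 2, with -0.57 against -0.19 for SNORA70E and -0.75 against -0.19 for OR14I1.

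Of the other 8 lower genes, several have roles in transcription or RNA control. TCEA2, a transcription elongation factor of the TFIIS family, was the most even, with differences of -0.15 to -0.23 and a mean of -0.20 (SE 0.10). CARHSP1, a cold-shock domain protein that binds messenger RNA, had a mean of -0.28 (SE 0.11). NACC2, a BTB-domain repressor of transcription, had -0.25 (SE 0.12). WASHC1, a subunit of the endosomal complex that nucleates actin, had -0.28 (SE 0.12), and this gene too has close copies. DNASE1L1 (-0.30), KIAA1549 (-0.27), CERCAM (-0.25) and SPATA31G1 (-0.26) completed the 12. SPATA31G1 was below the array median on all 8 arrays, and its second probe set had a mean difference of 0.01 and was higher on 4 of 6. CERCAM had the same signal, 64.5, to the last digit on 3 plasmid arrays.

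**Figure D2:**
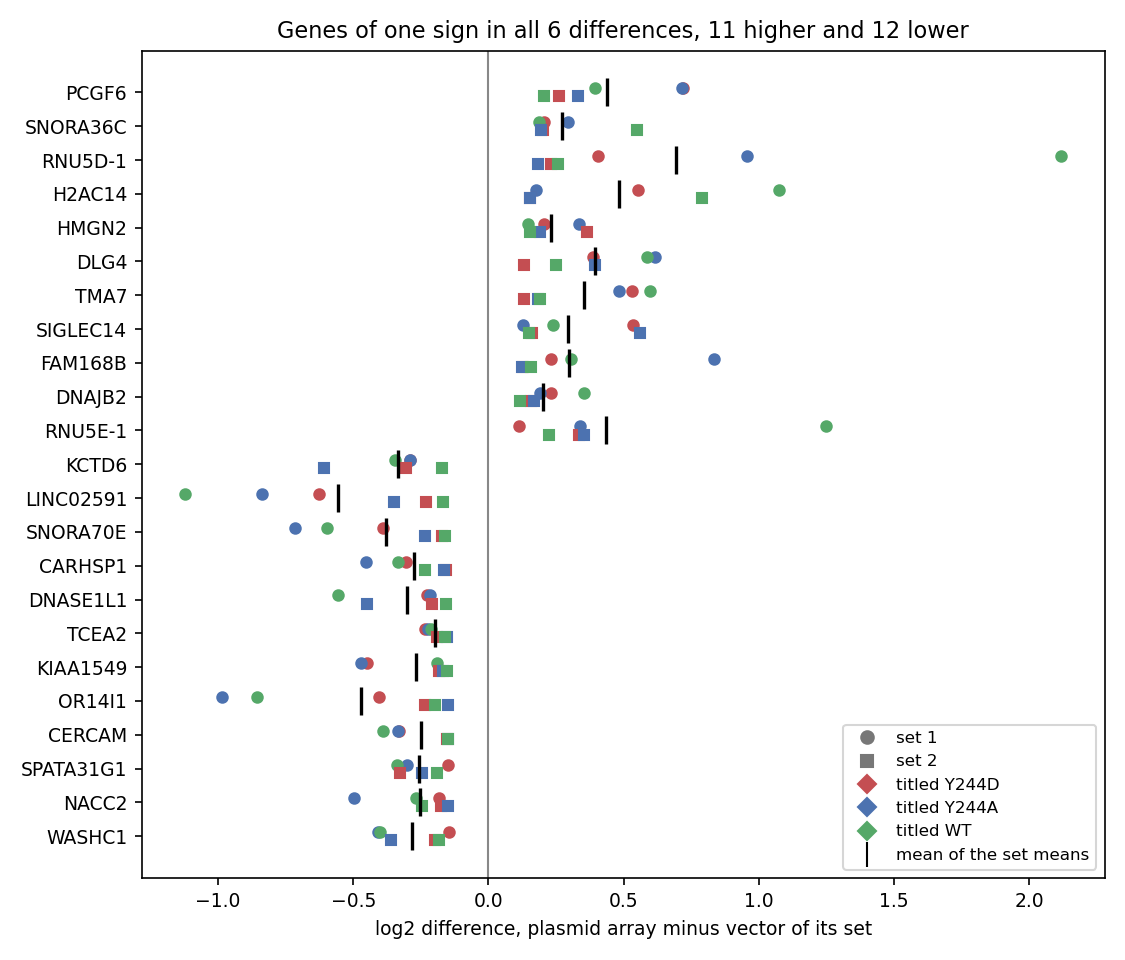
Log2 difference from the vector of the same set for the named genes other than EZH2, with circles for set 1, squares for set 2, colours for the construct in the title and a bar at the mean of the 2 set means. Every point of the 11 higher genes lies right of 0 and every point of the 12 lower genes left of it, since this chose them, and set 1 points usually lie farther out, up to 2.12 for RNU5D-1.

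Many of these genes had larger mean differences in set 1 than in set 2. A deviation of the set 1 vector and an effect of the set 1 plasmids cannot be told apart here. Without the vector of set 1, which leaves the differences of set 2 alone, PCGF6 had 0.27, DLG4 0.26, RNU5D-1 0.22, TMA7 0.17 and FAM168B 0.14. In the same fit LINC02591 had -0.25, SNORA70E -0.19, OR14I1 -0.19, KIAA1549 -0.17 and CERCAM -0.15. Without the vector of set 2 the means were 1.16 for RNU5D-1, 0.54 for TMA7, 0.46 for FAM168B, -0.86 for LINC02591, -0.57 for SNORA70E and -0.75 for OR14I1. For the other named genes of this ranking, leaving out either vector changed the mean by no more than 1.5 times.

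Most genes did not keep one direction between the sets. In set 1, 5323 genes were higher and 4033 lower in all 3 differences, and in set 2, 2589 were higher and 4591 lower. In 2825 genes set 1 was higher in all 3 while set 2 was lower in all 3, and 1355 showed the reverse. Either count exceeds the 583 genes of one sign. Across the 14410 genes, the mean differences of set 1 and set 2 correlated at r = -0.602, given as a description because genes are not independent. A limma interaction of set and plasmid called 0 genes (0%) at an adjusted p under 0.05. It had 1766 at an unadjusted p under 0.05, of which 1443 were higher in set 1 than in set 2. For EZH2 the effect was 2.27 in set 1 and 1.43 in set 2, with an interaction of 0.84 (SE 0.60, adjusted p = 0.485 by limma). PCGF6 had 0.61 and 0.27.

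**Figure D3:**
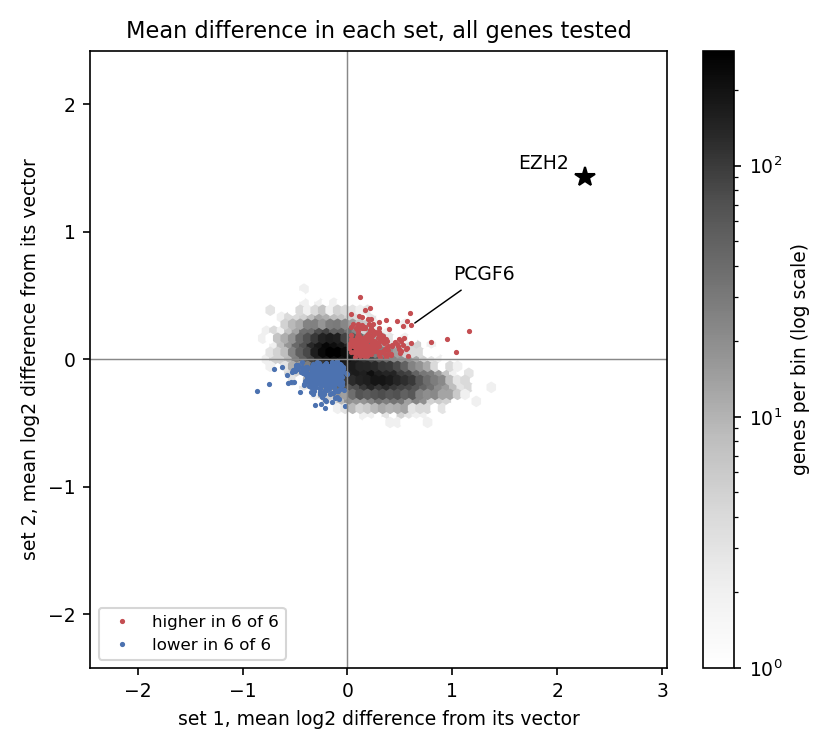
Mean log2 difference from the vector in set 1 (horizontal) against set 2 (vertical) for 14410 genes, shaded by the number of genes per bin on a log scale, with the 220 higher genes of one sign in red and the 363 lower ones in blue. The cloud slopes downward (r = -0.602), and EZH2 at 2.27 and 1.43 lies alone at the upper right.

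The differences in each set varied with signal level. Among the 4803 genes of the highest tertile by mean signal, the median difference was 0.13, 0.52 and 0.32 on the set 1 plasmid arrays titled Y244D, Y244A and WT and -0.05, -0.29 and -0.06 on those of set 2. Among the 4804 genes of the lowest tertile it was -0.04, -0.17 and -0.12 in set 1 and 0.01, 0.13 and 0.00 in set 2. Array range was wider than the vector's in set 1 and narrower in set 2, and its part in these medians was not tested. With array range (the same interquartile range) added to the fit as a covariate, EZH2 had a mean difference of 1.90 (adjusted p = 0.0542 by limma) and PCGF6 0.43 (adjusted p = 0.739), and 0 genes were called, with 915 at an unadjusted p under 0.05. The genes of one sign had lower signals than most, with a median of 94.9 for the higher and 81.7 for the lower against 108 for all genes.

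**Figure D4:**
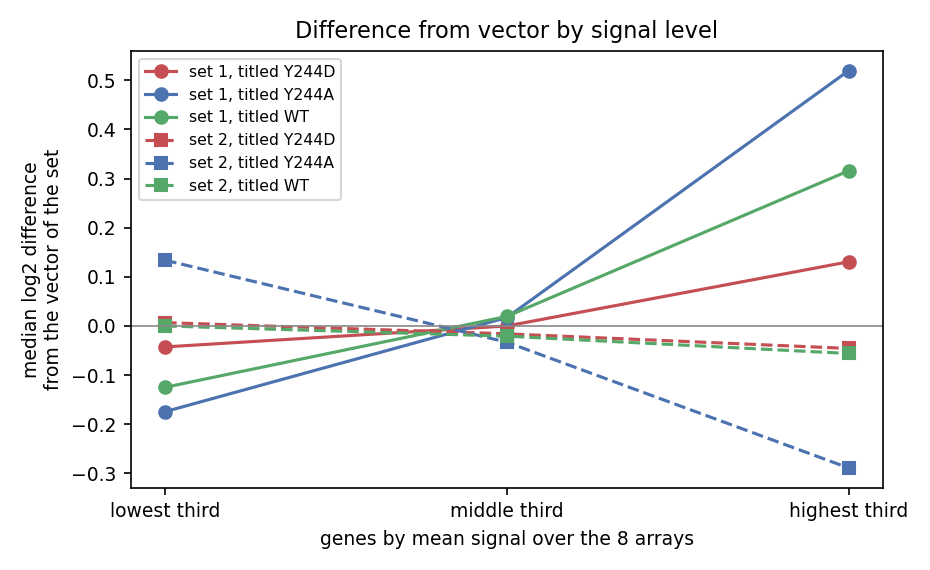
Median log2 difference from the vector in the lowest, middle and highest tertile of genes by mean signal, with 1 line per plasmid array, solid for set 1 and dashed for set 2. Set 1 lines climb to 0.13 to 0.52 in the highest tertile and set 2 lines drop to -0.05 to -0.29, with the 2 arrays titled Y244A at both extremes.

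PRC2 genes other than EZH2 mostly differed in direction between the sets. Of the 13 listed subunits and cofactors, all 13 were tested and 0 were called. In all 6 differences 1 (EZH2) was higher and 1 (EZHIP) lower, 7.69% each, beside 1.53% and 2.52% of all genes tested. The higher share is EZH2 alone, the gene on the plasmid, and no other member was higher in all 6. The median of the 13 was 0.30 in set 1 and -0.12 in set 2, beside 0.04 and -0.04 over all genes. Their median signal was 368 against 108 for all genes, which falls in the highest tertile. On the arrays titled Y244D, Y244A and WT the list medians were 0.11, 0.55 and 0.31 in set 1 and -0.02, -0.33 and -0.03 in set 2. All genes of the highest tertile had 0.13, 0.52 and 0.32 in set 1 and -0.05, -0.29 and -0.06 in set 2. SUZ12, a core subunit, had a mean of 0.44 in set 1 and -0.23 in set 2. EED, the core subunit that binds the methyl mark, had -0.04 and -0.15, and RBBP4, a histone-binding subunit, 0.55 and -0.10. EZH1, the related methyltransferase, had a mean of 0.08 with 3 of 6 differences above 0. Means of the other members lay between -0.04 for PHF19 and 0.12 for MTF2. EZHIP, an inhibitor of PRC2, was at 108 with the set 1 vector and 94.5, 73.8 and 76.5 with the plasmids, and at 79.0 against 71.4, 73.8 and 73.2 in set 2, a mean of -0.26 (SE 0.13).

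PRC1 genes gave a similar picture. Of 30 listed, 26 were measured and 22 tested, with 0 called. In all 6 differences 1 was higher (PCGF6, 4.55%) and 2 lower (KDM2B and BCORL1, 9.09%), beside 1.53% and 2.52% of all genes tested. The median of the list was 0.15 in set 1 and -0.07 in set 2. The 4 partners E2F6, MAX, L3MBTL2 and RYBP had set 2 means below that of PCGF6, which was not tested. E2F6 had 0.42 in set 1 and -0.28 in set 2, MAX 0.17 and -0.09, and RYBP 0.29 and -0.06. L3MBTL2 had 0.20 in set 1 and a set 2 mean close to 0, with 2 of 3 arrays above their vector. YAF2 likewise had 0.53 and a mean close to 0. Among the other PCGF genes the means were 0.01 for PCGF1, -0.08 for PCGF2, -0.07 for PCGF3 and 0.05 for PCGF5. KDM2B, which brings a PRC1 variant to CpG islands, had a mean of -0.14 (SE 0.12) and BCORL1, a corepressor of the same variant, -0.07 (SE 0.11). RING1, a ubiquitin ligase subunit, had -0.13. The remaining members had means between -0.08 for PHC2 and 0.22 for USP7.

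Enzymes that oppose Polycomb, and genes said to be silenced by EZH2, were measured as well. Of 24 H3K27 demethylase, MLL and SWI/SNF genes 0 were higher and 2 lower (8.33%), beside 1.53% and 2.52% of all genes tested. ARID1B, a SWI/SNF subunit, had -0.19 (SE 0.11) and KMT2B, a histone H3 lysine 4 methyltransferase, -0.11 (SE 0.11). Of 13 tested genes reported elsewhere as silenced by EZH2, 1 was higher and 1 lower, and their median was -0.05. RUNX3, a transcription factor of lymphocytes, was higher, by 0.12 (SE 0.11). E2F2, a cell cycle transcription factor, was lower by 0.15 (SE 0.10) and had 76.0 with the set 1 vector and 66.9, 66.6 and 66.9 with the plasmids, and 64.6 against 60.9, 59.2 and 60.2 in set 2. Its mean was 9.69 times its SD within a set, but its unadjusted p was 0.193 by limma, whose variance estimate borrows from all genes. Of 18 DNA methylation and heterochromatin genes 0 were higher and 1 (DNMT3L, -0.08) was lower. DNMT3L was below the array median on 8 of 8 arrays.

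Cell cycle lists held 0 to 4 members of one sign, all of them lower. Of 44 DNA replication genes 0 were higher and 4 lower (9.09%), beside 1.53% higher and 2.52% lower of all genes tested. MCM4, a subunit of the replicative helicase, had 354 with the set 1 vector and 233, 323 and 220.4 with the plasmids, but 240.1 against 227, 237 and 232 in set 2. Its mean was -0.26 (SE 0.16), and the difference in set 2 was at most 0.08 in size. RRM2, a ribonucleotide reductase subunit, had -0.16 (SE 0.13) and RPA3, a subunit of the single-strand binding complex, -0.11 (SE 0.11). RPA3 was below the array median on 7 of 8 arrays. Of 25 G1-S regulators 2 were lower (8%), E2F2 and E2F3 (-0.19, SE 0.13). Of 29 mitosis genes and 7 CDK inhibitors 0 had one sign.

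Lists of growth and stress genes had opposed medians in the sets. For their counts of one sign, 1.53% of all genes tested were higher and 2.52% lower in all 6 differences. All 30 measured cytosolic ribosomal protein genes were tested and 0 had one sign, with a median of 0.42 in set 1 and -0.14 in set 2. Their median signal was 2010.2, far above that of all genes. Ribosome biogenesis had 0.23 and -0.14, with 2 of 20 genes higher, NPM1 (0.19, SE 0.11) and RRP12 (0.08). NPM1 had low signals of 56.6 to 74.2, below the array median on 6 of 8 arrays. The smallest difference of RRP12 was only 0.0003. Cholesterol synthesis had 0.37 and -0.11, with 0 of 15 of one sign. Heat shock chaperones had 0.38 and -0.12, with 0 of 12, and cytosolic DNA sensing 0.38 and -0.10, with 0 of 14. In the ATF4 and ER stress list, at 0.36 and -0.08, 1 of 23 was higher. This was HSPA5, the main chaperone of the endoplasmic reticulum, which had 1665 with the set 1 vector and 2463, 2925 and 2136 with the plasmids. In set 2 it had 1830.0 with the vector and 1888, 1871 and 1831, so that its mean of 0.30 (SE 0.16) rested on set 1. MANF, a secreted protein of the same response that lies outside the list and was chosen after its values were seen, was higher by 0.32, with 0.39 to 0.63 in set 1 and 0.11 to 0.18 in set 2.

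Of 18 p53 target genes 1 was higher and 1 lower, 5.56% each, beside 1.53% and 2.52% of all genes tested. The medians of the list were 0.28 in set 1 and -0.08 in set 2. GADD45A, a growth arrest gene, was higher by 0.17 (SE 0.12) and ZMAT3, which binds RNA, lower by 0.05 (SE 0.10). In the hypoxia and glycolysis list, PFKFB3 was higher by 0.14 and PFKFB4 lower by 0.17, 2 of 21 genes that encode enzymes of the same regulatory step. Of 22 nucleotide synthesis genes 0 had one sign.

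Signalling lists held 0 to 2 members of one sign in a direction, where 1.53% of all genes tested were higher and 2.52% lower. Of 14 JAK and STAT genes 0 were higher and 1 lower. TYK2, a kinase of cytokine receptors, had -0.21 (SE 0.12). Of 25 interleukin-2 and STAT5 response genes 1 was lower, DUSP6 (-0.16, SE 0.14), a phosphatase of ERK that the immediate early list also holds. In that list of 21, EGR3 was higher by 0.09, at signals below the array median on 8 of 8 arrays. Of 19 NF-kB genes 2 were higher, CD83 (0.16, SE 0.11) and TRAF1 (0.09, SE 0.11), and of 22 interferon-stimulated genes 1, the exonuclease gene ISG20 (0.14, SE 0.11). Of 18 invasion genes 1, PLAUR (0.08), was higher, and of 8 stemness genes 0 had one sign. PLAUR was below the array median on 7 of 8 arrays.

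Natural killer genes included 1 higher and 1 lower of 22, at a median of 0.01. These are 4.55% in each direction, beside 1.53% higher and 2.52% lower of all genes tested. NCAM1, the CD56 surface marker, was at 104.9 with the set 1 vector and 82.2, 79.4 and 85.1 with the plasmids, and at 84.3 against 69.1, 65.3 and 78.0 in set 2. NCAM1 was named because all 6 of its differences were below 0. The mean was -0.30 (SE 0.12; unadjusted p = 0.0247 and adjusted p = 1.0 by limma), 3.05 times the SD within a set. ID2, a regulator of natural killer cell development, was higher by 0.14 (SE 0.12). The summed signal of the 10 identity markers was 4923 to 5286 on the vector arrays and 4565 to 6762 on the plasmid arrays, and that of the 7 T cell markers was 557 to 583 and 556 to 699. The 4 B cell markers summed to 231 to 304 and 241 to 288, the 6 monocyte markers to 391 to 403 and 380.1 to 423, and the 7 epithelial and fibroblast markers to 552 to 980.1 and 543 to 835. In each class the vector sums overlapped the plasmid sums. In the wider lists 0 of 7 T cell, 0 of 7 monocyte and 0 of 9 epithelial and fibroblast markers had one sign, while 1 of 7 B cell genes was higher (VPREB3, 0.20) and 1 lower (CD22, -0.15).

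Replication-dependent histone genes held 4 higher and 4 lower members among 51 tested, 7.84% in each direction. Besides H2AC14 the higher ones included H2AC4 (0.23, SE 0.14) and H4C9 (0.18, SE 0.12), the latter below the array median on 7 of 8 arrays. Among the lower were H4C3 (-0.21, SE 0.11), H2AC21 (-0.22, SE 0.12) and H2BC11 (-0.12, SE 0.11). H4C3 had 2353 with the set 1 vector and 1857, 2049.9 and 1936 with the plasmids, and 1829.6 against 1629, 1715 and 1646 in set 2. Of 123 small nucleolar RNAs 2 were higher and 2 lower, and SNORA41 (0.25, SE 0.14) and SNORA70G (-0.35, SE 0.17) joined the 2 named above. Of 74 olfactory receptor genes, which are mostly silent outside the nose, 1 was higher (OR2M5, 0.21) and 2 were lower (OR14I1 and OR6F1, -0.27). Their shares of 1.35% and 2.70% lay near the 1.53% and 2.52% of all genes.

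**Figure D5:**
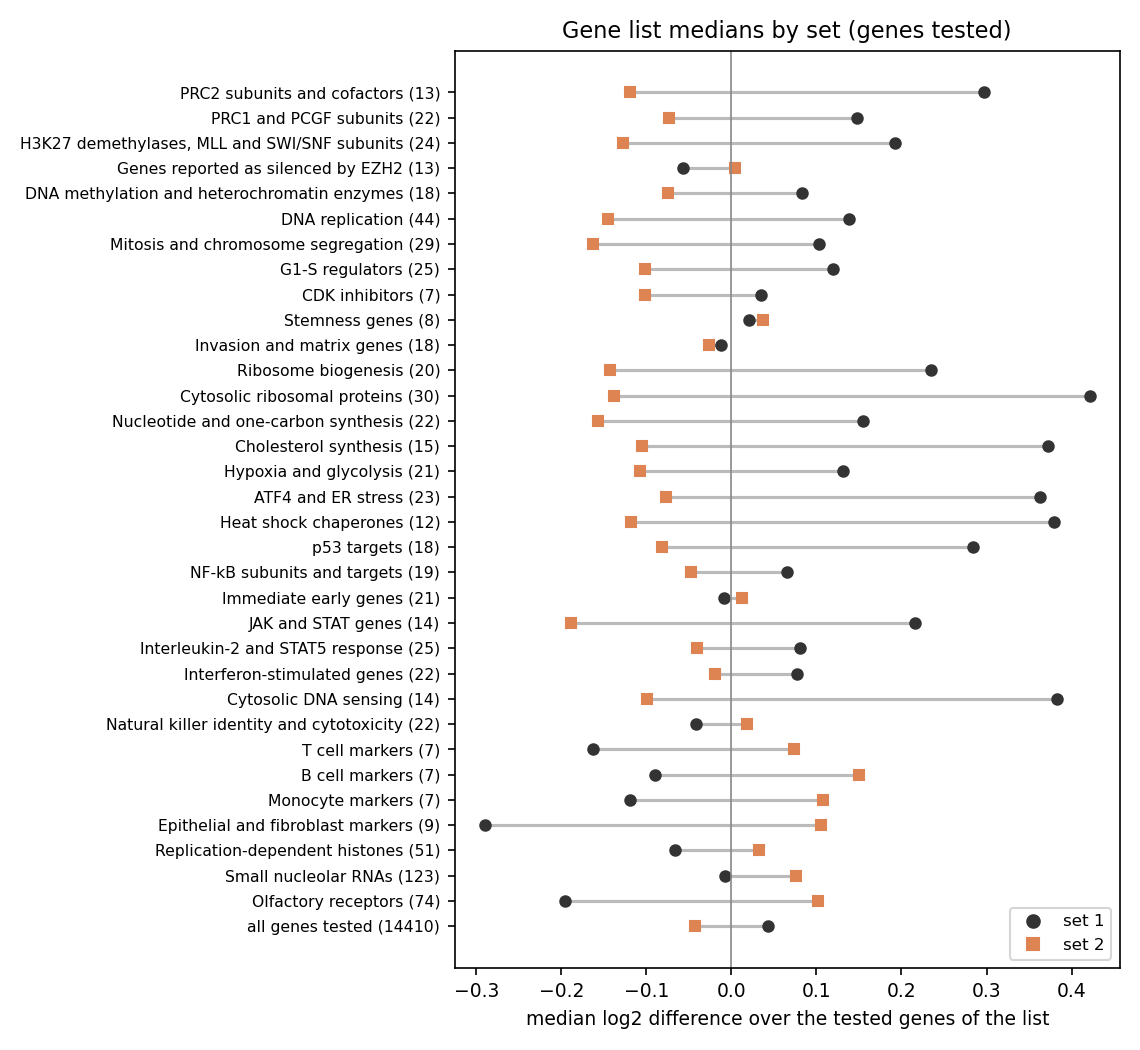
Median log2 difference from the vector over the tested genes of each list, with the number of genes in brackets, for set 1 (dark circles) and set 2 (orange squares). Most lists lie right of 0 in set 1 and left of it in set 2, such as cytosolic ribosomal proteins at 0.42 and -0.14, while all genes lie at 0.04 and -0.04.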

How the data were processed

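RNA of 17 arrays was extracted and labelled from 100 ng of total RNA, per the labels' protocols. The authors deposited signal intensity on a linear scale for 28869 probe sets. Background correction, normalization and probe summary are not given in the sources used here. Values were taken to log2 without further scaling. The number of arrays limits the precision.

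Of the probe sets 19310 had 1 gene symbol in the platform annotation, 1752 several and 7807 none, and only the first were named. The probe set with the highest mean stood for each of 18377 genes (685 had more than 1). Genes with a mean signal under 40.9, the 30th percentile over probe sets, were left out, which kept 14410. EZH2 and PCGF6 were exempt from this filter.

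Effects were fitted with limma 3.58.1 in R 4.3.3 with data.table, version 1.17.8, using lmFit and eBayes on 8 arrays with the set as a block and 5 residual degrees of freedom, two-sided, with Benjamini-Hochberg adjustment over all genes and a threshold of 0.05. The interaction left 4. The scripts were tested on simulated data. Titles give the set number of 7 of the 8 arrays; the WT array without a number is in set 2 by the rule of the comparison. Over genes, the set difference between the vectors and that between the plasmid arrays correlated at r = 0.842. No column repeated another.

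The members and the 33 gene lists were chosen with earlier results of these data known. Named genes are EZH2, PCGF6, the 12 per direction with the largest smallest difference among genes of one sign, up to 3 such members per list and the Polycomb lists.

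Alternatives were no block, quantile normalization, median centring, other filters, the mean of probe sets, trended and robust eBayes, array weights, array range as covariate, each set alone and each array left out. A fit with an effect for each set was added after seeing the data.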

Additional observations from a re-analysis of the deposited data

Results flagged for a closer look

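Within the 6 plasmid arrays, single arrays stood apart for 3 named genes. The rule used would flag about 1 in 20 groups drawn from 1 normal distribution. That rate need not hold here, since the 6 arrays come from 2 sets and the genes were chosen on these same arrays. SNORA36C had a signal of 67.9 on the set 2 array titled WT, OR14I1 had 67.8 on the set 1 array titled Y244D, and CERCAM had 62.1 on the set 1 array titled WT. All 3 lie near or under the array median.

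In 18 gene lists, and over all genes, the median was above 0 on all plasmid arrays of one set and below 0 on all of the other. The difference between the sets was not tested for these lists. Median signal differed between them, from 49.0 for olfactory receptors to 2010.2 for cytosolic ribosomal proteins, and its part was not tested. Set 1 minus set 2 was 0.42 for PRC2, 0.22 for PRC1, 0.32 for H3K27 demethylase, MLL and SWI/SNF genes and 0.16 for DNA methylation enzymes. It was 0.28 for DNA replication, 0.14 for CDK inhibitors, 0.38 for ribosome biogenesis, 0.56 for cytosolic ribosomal proteins and 0.31 for nucleotide synthesis. It was 0.24 for hypoxia and glycolysis, 0.44 for ATF4 and ER stress, 0.50 for heat shock chaperones, 0.37 for p53 targets, 0.40 for JAK and STAT genes and 0.48 for cytosolic DNA sensing. T cell markers had -0.24, B cell markers -0.24 and olfactory receptors -0.30, and all genes tested had 0.085.

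The array with the SET-deleted plasmid, which no comparison used, had an EZH2 signal of 1471 against 259 and 349 on the vector arrays.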

How the results depend on the processing

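The fits of plasmid against vector called 0 genes in every alternative run. The 583 genes of one sign became 930 after quantile normalization, 892 without a filter on low signal and 372 with the 50th percentile filter. Without the replicate block, where each plasmid array was set against the mean of both vectors, there were 1044 genes of one sign and 0 called. Set 1 alone had 9356 and set 2 alone 7180 genes of one sign in 3 differences. Leaving out 1 array gave 707 to 9356, with 983 without the set 1 array titled Y244A, 2130 without the set 2 array of that title, 7180 without the vector of set 1 and 9356 without that of set 2. Fewer differences have to share a sign in these counts. Without the WT array that has no set number in its title there were 764 genes of one sign and 0 called, with EZH2 at 1.89 and PCGF6 at 0.46. After quantile normalization 135 of the 220 higher genes (61.4%) and 218 of the 363 lower genes (60.1%) kept one sign, which is 33.9% and 41.0% of the genes of one sign then found, while H2AC14, HMGN2, RNU5E-1 and NACC2 became mixed. EZH2 ranged from 1.43 to 2.27 on the log2 scale and PCGF6 from 0.24, with the mean of its probe sets, to 0.61, with set 1 alone. For the 24 genes ranked by their smallest difference, the mean kept its direction under each alternative that kept the gene, 16 of 24 under the 50th percentile filter. Values of the list members outside these 24 were not examined under the alternatives. Among those members SUZ12 (0.44 and -0.23), RBBP4 (0.55 and -0.10) and E2F6 (0.42 and -0.28) had opposed means in set 1 and set 2. With 1 vector array per set, a deviation of that array and an effect of the plasmids cannot be told apart.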
